A study of Mus musculus with 16 samples.

Results

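CD8+ and CD4+ tumor-infiltrating lymphocytes (TILs) of wild-type (WT) mice were compared across the transcriptome. The members are the 4 libraries labelled as CD8 T cells and the 4 labelled as CD4 T cells of the wild-type genotype, 8 of the 16 libraries of the study. The mice were C57BL/6J animals used at 7 to 8 weeks of age per the study's methods, carried no engineered allele, and bore subcutaneous tumors of B16F10, a transplantable mouse melanoma line of the same strain. The other 8 libraries are the same cell types from mice without Sirt2, a NAD-dependent deacetylase (B6.129-Sirt2tm1.1Fwa/J). Tumors were digested, T cells were enriched with beads against CD3ε, and total RNA was sequenced with a stranded kit for very small inputs. The sources used here do not state how CD4+ and CD8+ cells were then separated, or whether the CD4+ and CD8+ libraries of 1 number came from 1 animal. The p-values therefore measure the spread between these libraries. The study asked how loss of Sirt2 changes signaling downstream of the T cell receptor (TCR), and the present comparison holds the genotype fixed and varies the lineage.

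CD4+ and CD8+ T cells arise from common thymic precursors. Recognition of MHC class II or class I by the TCR, helped by the CD4 or CD8 coreceptor, is followed by expression of ThPOK (Zbtb7b) or Runx3, which repress each other's programme. CD8+ T cells are known for killing target cells with perforin and granzymes and for receptors shared with natural killer (NK) cells. CD4+ T cells are known for CD40 ligand and cytokine help, and in tumors a large part of them can be regulatory T (Treg) cells, which depend on the transcription factor Foxp3.

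Total counts on genes were 28000949 to 44489344 in the 8 WT libraries. Replicate 1 of both cell types stood apart, with at least 1 count on 12587 genes in CD4+ TILs and on 14411 in CD8+ TILs, against 17730 to 20980 in the other 6. Among abundant genes, which averaged 100 counts or more in the remaining libraries of that lineage, 7.26% had no count in CD4+ replicate 1 and 1.57% in CD8+ replicate 1, against at most 0.309% in the others. A value of 0 in these 2 libraries was not read as absence. The fits, ratios of means and statements on overlap with all libraries did use it as a value. The depth of these 2 libraries also entered the floors used below for genes without a count in 1 cell type. The first principal component of log2 expression (48.1% of the variance) set CD4+ replicate 1 apart, and the second (26.6%) CD8+ replicate 1. The first, the second and the third (11.7%) component each separated the cell types among replicates 2 to 4. On the second, these CD4+ libraries were at -68.7 to -61.6 and the CD8+ libraries at 2.5 to 4.5. On the third, each replicate 1 library was on the side of the other cell type. In CD4+ replicate 4, 27.9% of the counts fell on 5 genes, against 13.8% to 18.3% in the others.

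The lineages differed in many genes, and with all 8 libraries most of the smallest p were of genes higher in CD4+ TILs. Counts were compared with edgeR's quasi-likelihood test after TMM normalization, and genes with an adjusted p (Benjamini-Hochberg) below 0.05 are referred to as called. Of 14892 genes tested, 1765 were called (11.9%), 728 higher in CD8+ TILs (4.89%) and 1037 higher in CD4+ TILs (6.96%). Of the 20 genes with the smallest p, 19 were higher in CD4+ TILs, and of the first 100 genes 78 were. This ranking was made with both replicate 1 libraries included and was not repeated without them. The median size of a called difference was 1.03 on the log2 scale for genes higher in CD8+ TILs and 1.11 for genes higher in CD4+ TILs, and 78 and 125 genes passed 3 on that scale (an 8-fold difference). The groups did not overlap in normalized CPM (counts scaled to library size) for 3346 genes (22.5%), 1626 higher in CD8+ and 1720 higher in CD4+ TILs. Without both replicate 1 libraries, 4394 of 15694 genes were called (28%), 2331 higher in CD8+ (14.9%) and 2063 higher in CD4+ TILs (13.1%). Of the 1765 genes called with all libraries, 1729 were called there too, each in the same direction. The number of calls thus changed with the libraries included. It was 2767 without CD4+ replicate 1 alone and 1853 without CD8+ replicate 1 alone.

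**Figure D1:**
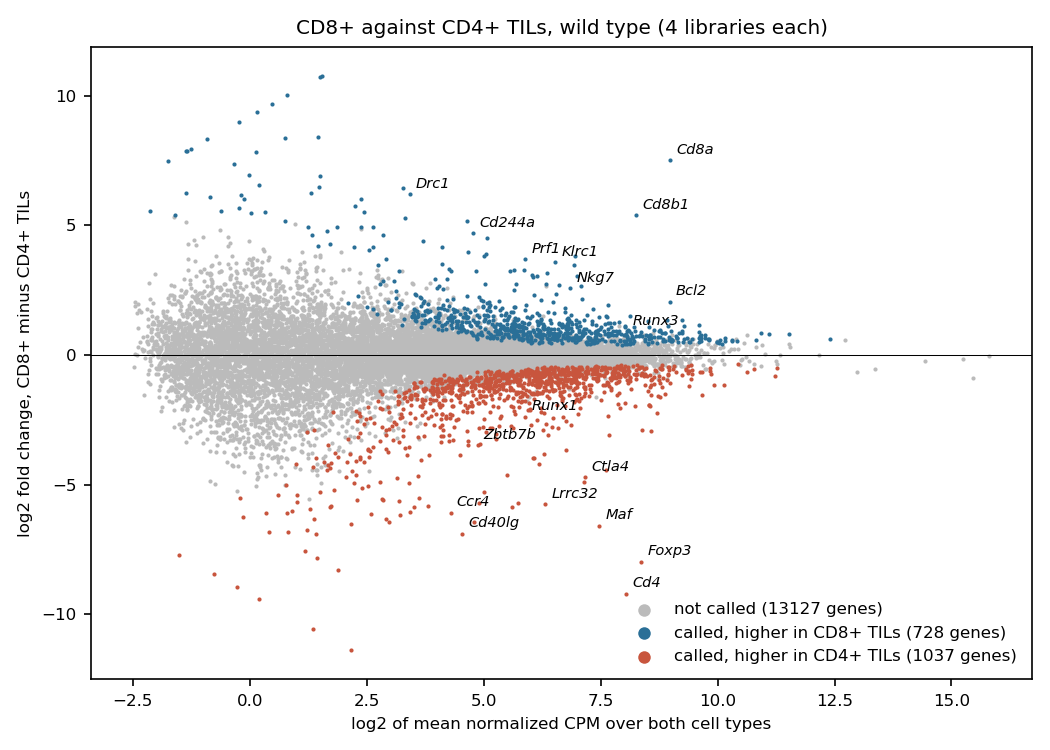
Log2 fold change of CD8+ over CD4+ TILs (y axis) against the log2 of the mean normalized CPM (x axis) for the 14892 genes tested in the 4 WT libraries of each cell type, 1 point a gene. The 728 genes called higher in CD8+ TILs are blue and the 1037 called higher in CD4+ TILs are red, with Cd4 and Foxp3 at the lower edge and Cd8a and Cd8b1 at the upper edge of the well expressed genes.

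Calls were more frequent among genes with higher levels. Among 2023 genes averaging 100 normalized CPM or more, 29.4% were called, against 15.5% of those from 10 to 100 CPM, 3.72% of those from 1 to 10 CPM and 1.01% below 1 CPM. Calls were spread over the genome, from 8.86% of the tested genes on chromosome 14 to 15.7% on chromosome 15 among the autosomes, with 9.22% on chromosome X. Protein-coding genes made up 703 of the 728 and 1006 of the 1037 calls, out of 11570 tested. Of 77 V segments of the TCR loci tested, 3 were called, all higher in CD8+ TILs. Of all genes tested, 4.89% were called higher in CD8+ TILs, so V segments were not called more often than genes at large. The 3 segments were Trgv2, Trav15-2-dv6-2 and Trbv13-1, chosen here after their values were seen.

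The coreceptor genes were high in every library of the labelled lineage and low in every library of the other. Cd4 (chr6:124864692-124888221, minus strand, build GRCm38, GENCODE release 21 as in the files) was at 469, 644, 539 and 455 normalized CPM in CD4+ replicates 1 to 4. In CD8+ replicates 1 to 4 it was at 0, 0.961, 0.59 and 2. Every CD4+ library was thus more than 100 times above every CD8+ library, and the log2 fold change was -9.2 ± 0.69 (SE; CD8+ minus CD4+, as in all values below), with an adjusted p of 2.19e-05. Cd8b1 (chr6:71322788-71337494, plus strand), the CD8β chain, was at 13.9, 16.2, 14.8 and 12 CPM in CD4+ and 443, 654, 636 and 666 CPM in CD8+ TILs. It had the smallest p of all genes (log2 fold change 5.4 ± 0.18, adjusted p = 1.1e-07), and CD8+ replicate 1 was the lowest of the CD8+ libraries. Cd8a (chr6:71373427-71379173, plus strand), the CD8α chain, lies 35932 bases downstream on the same strand. It was at 1004, 1019, 996 and 1020.2 CPM in CD8+ TILs and at 0.0331, 9.6, 3.02 and 9.36 CPM in CD4+ TILs, where it varied more than Cd8b1 (log2 fold change 7.51 ± 0.9, adjusted p = 0.000441). Both CD8 chains thus had counts in all 4 CD4+ libraries, at a low level.

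Of the 13 genes of the coreceptor and lineage regulator list, 3 (23.1%) were called higher in CD8+ TILs and 6 (46.2%) higher in CD4+ TILs. Of all genes tested, 4.89% and 6.96% were. The median log2 fold change was -0.5, against -0.02 over all genes tested. Without both replicate 1 libraries 4 and 6 were called. The shares of all genes in that fit, 14.9% and 13.1%, also apply to such counts of the lists below. Zbtb7b, which encodes ThPOK, the factor that commits thymocytes to the CD4 lineage, was at 54.9, 58.5, 48.7 and 52.6 CPM in CD4+ TILs. Its level in CD8+ TILs was 0.779, 6.57, 4.77 and 7.33 CPM, so the groups were far apart (log2 fold change -3.46 ± 0.52, adjusted p = 0.00165). Runx3, its counterpart in CD8+ T cells, differed less, at 195, 188, 183 and 170.3 CPM in CD4+ against 411, 347, 331 and 303 CPM in CD8+ TILs. The groups did not overlap, and the ratio of means was 1.89 (log2 fold change 0.92 ± 0.12, adjusted p = 0.00071). Runx1, a Runx factor active in the thymus before lineage choice, went the other way, with 106, 108, 106 and 77.6 CPM in CD4+ and 25.9, 19.6, 16.2 and 15 CPM in CD8+ TILs. It was 5.18-fold higher in CD4+ TILs (log2 fold change -2.37 ± 0.21, adjusted p = 5.94e-05).

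Myb, a factor of early T cell development, was 5.4-fold higher in CD4+ TILs (210.2, 147, 136 and 107 against 37.5, 30.4, 21.5 and 21.7 CPM). The lowest CD4+ library was above the highest CD8+ library by a wide margin (adjusted p = 0.000147). Gata3, needed for CD4+ T cell development and for type 2 helper cells, was at 82.2, 90.3, 108 and 126 CPM in CD4+ and 39.6, 45.8, 46.9 and 41.9 CPM in CD8+ TILs (log2 fold change -1.22 ± 0.17, adjusted p = 0.000799). Bcl11b, a guardian of T cell identity, was 1.69-fold higher in CD4+ TILs (adjusted p = 0.00412), again with no overlap. The other 4 genes were not called: Tox (log2 fold change 0.42 ± 0.23), Satb1 (-0.03 ± 0.21), the Runx partner Cbfb (0.55 ± 0.23) and Patz1 (-0.5 ± 0.28). Without both replicate 1 libraries Cbfb was called higher in CD8+ TILs (0.5, adjusted p = 0.0115). The sign of Satb1 changed with the normalization and with the libraries used, so no direction is given for it.

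**Figure D2:**
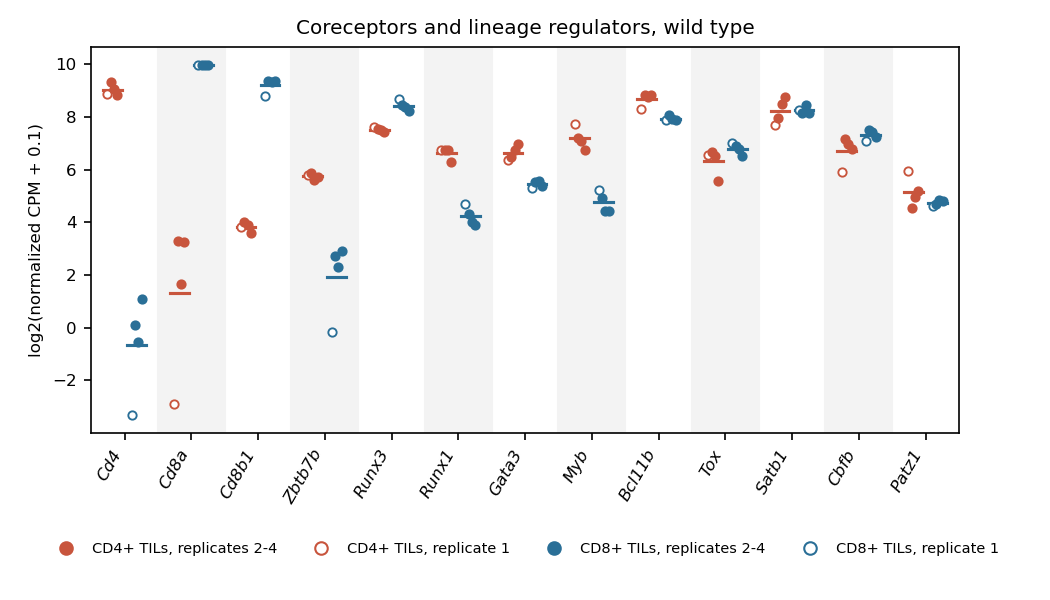
Normalized CPM, as log2(CPM + 0.1), of the 13 coreceptor and lineage regulator genes in each WT library; red points are CD4+ and blue points CD8+ TILs, open points are replicate 1 of each and bars are the means of the 4 log2 values. Cd4, Zbtb7b, Runx1, Gata3, Myb and Bcl11b lie higher in all 4 CD4+ libraries and Cd8a, Cd8b1 and Runx3 in all 4 CD8+ libraries, while Tox, Satb1, Cbfb and Patz1 overlap.

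Because Runx factors act in both lineages, the letters TGTGGT (a Runx core motif, either strand) were searched in the promoter windows of RefSeq on GRCm38.p6, from 250 bases before to 50 bases after each start. Of 32851 windows of 27025 genes, 5506 held the motif (16.8%), as did 13.2% of the windows of the tested genes that matched (9736 of 14892 genes). The share was 15.8% for genes called higher in CD8+ and 14.8% for genes called higher in CD4+ TILs. It was 55.6% for the cytotoxic list (15 of 27 windows, 24 of 27 genes matched) and 41.7% for the NK receptor list (15 of 36 windows, 28 of 33 genes matched). The Treg list held it in 20% (5 of 25 windows) and the lineage list in 16.7% (3 of 18). Members of 1 gene family may share promoter sequence, which was not tested, and a match is only a match of letters. For each of these 4 lists, the called gene with the smallest p that has a window is shown with matches in capitals, 5′ to 3′ along the gene. The windows are Runx1 (chr16:92826025-92826324, minus strand), Nkg7 (chr7:43436888-43437187, plus strand), Klrc1 (chr6:129678924-129679223, minus strand) and Tnfrsf4 (chr4:156013445-156013744, plus strand). Runx1 has 2 windows, and the one shown has 2 matches just after its start, Nkg7 and Klrc1 have 1 each before the start, and the Tnfrsf4 window has none.
Runx1: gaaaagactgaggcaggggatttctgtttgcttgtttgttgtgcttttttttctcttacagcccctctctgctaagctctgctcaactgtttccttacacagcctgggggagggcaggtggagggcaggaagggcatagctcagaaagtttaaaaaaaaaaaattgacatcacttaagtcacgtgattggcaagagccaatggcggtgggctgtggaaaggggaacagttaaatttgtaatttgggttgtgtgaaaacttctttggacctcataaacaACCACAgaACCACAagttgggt
Nkg7: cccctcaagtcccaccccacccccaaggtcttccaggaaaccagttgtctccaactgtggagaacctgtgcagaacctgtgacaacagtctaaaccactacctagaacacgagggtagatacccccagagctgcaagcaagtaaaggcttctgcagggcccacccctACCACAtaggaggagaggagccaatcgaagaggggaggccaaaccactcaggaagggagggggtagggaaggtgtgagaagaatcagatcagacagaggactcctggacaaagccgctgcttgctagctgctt
Klrc1: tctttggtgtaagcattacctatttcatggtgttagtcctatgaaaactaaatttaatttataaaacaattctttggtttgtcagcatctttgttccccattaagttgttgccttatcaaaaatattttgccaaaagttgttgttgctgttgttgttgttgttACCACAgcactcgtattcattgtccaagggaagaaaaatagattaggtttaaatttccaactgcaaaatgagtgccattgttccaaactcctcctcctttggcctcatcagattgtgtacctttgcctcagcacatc
Tnfrsf4: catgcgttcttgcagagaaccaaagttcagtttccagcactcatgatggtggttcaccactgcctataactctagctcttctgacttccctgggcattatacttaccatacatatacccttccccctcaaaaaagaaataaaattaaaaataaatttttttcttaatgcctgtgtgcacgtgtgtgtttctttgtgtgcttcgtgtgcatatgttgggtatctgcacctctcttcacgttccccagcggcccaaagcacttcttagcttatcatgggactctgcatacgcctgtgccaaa

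Treg genes had the largest median difference of the lists, toward CD4+ TILs. Of 28 genes tested of 29 on the Treg list, 26 (92.9%) were called higher in CD4+ TILs, against 6.96% of all genes tested. None was called higher in CD8+ TILs, and the median log2 fold change was -3.16. The 2 not called were Il10 and Entpd1, both with a negative log2 fold change, and without both replicate 1 libraries 27 of 28 were called higher in CD4+ TILs. The summed level of the list was 4224 to 6215 CPM in CD4+ and 920.1 to 1029 CPM in CD8+ libraries. In a bulk library, a larger share of Treg cells and more RNA per cell cannot be told apart, here and in the other lists.

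Foxp3 (chrX:7573644-7595245, plus strand), the factor that defines the Treg lineage, was at 919.6, 700, 629.9 and 374 CPM in CD4+ replicates 1 to 4. It was at 0.959, 2.78, 2.47 and 4.25 CPM in CD8+ replicates 1 to 4, below 5 CPM in each. The ratio of means was 251 and the log2 fold change -7.97 ± 0.47 (adjusted p = 4.15e-06), with replicate 4 the lowest of the CD4+ libraries. Lrrc32, which anchors latent TGF-β on Treg cells, was at 186, 153, 153 and 134 CPM in CD4+ and 2.07, 2.78, 3.59 and 3.25 CPM in CD8+ TILs, the second smallest p of all genes (log2 fold change -5.74 ± 0.22, adjusted p = 2.29e-07). Itgb8, an integrin chain that releases active TGF-β, was at 18.7, 68.5, 82.4 and 49.4 CPM in CD4+ and at most 1.5 CPM in CD8+ TILs (adjusted p = 0.000765). Ebi3, a subunit of IL-35 and IL-27, was low but separate, at 4.8, 12.6, 10.5 and 7.66 CPM against 0, 0.286, 0.0268 and 0.0555 CPM (adjusted p = 0.00295).

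The receptors of the Treg list followed the same order. Ctla4, an inhibitory receptor that competes with CD28, was at 318, 335, 292 and 163 CPM in CD4+ and 12.8, 10.6, 10.3 and 9.13 CPM in CD8+ TILs. It was 25.9-fold higher in CD4+ TILs, with adjusted p = 1.97e-06. Tnfrsf4 (OX40), whose promoter is shown above, was at 336, 268, 287 and 204 against 12.9, 7.66, 8.34 and 8.24 CPM, a 29.4-fold difference (adjusted p = 1.1e-06). Il2ra, the high-affinity chain of the IL-2 receptor, was at 692, 761, 655 and 606 CPM in CD4+ TILs and still at 46.7, 95.8, 97 and 122 CPM in CD8+ TILs. The CD8+ level of Il2ra was thus well above that of Foxp3, and the difference was 7.51-fold (adjusted p = 4.95e-05). Ikzf2, which encodes Helios, differed as much (588, 696, 641 and 445 against 48.4, 81.4, 98 and 87.8 CPM, 7.51-fold, adjusted p = 2.68e-05). Icos (8.51-fold), Tnfrsf18 or GITR (5.08-fold) and Tigit (2.94-fold) were also higher in all 4 CD4+ libraries.

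Of 20 tested genes of the helper list (33 in all), 8 (40%) were called higher in CD4+ TILs, against 6.96% of all genes tested. Tbx21 was the 1 (5%) called higher in CD8+ TILs, against 4.89% of all genes tested. The median was -0.94 (11 and 2 called without both replicate 1 libraries). Cd40lg, the ligand by which helper cells activate B cells and dendritic cells, was at 43.4, 44.9, 50.9 and 46.1 CPM in CD4+ TILs. It was at 0, 0.389, 0.322 and 0.833 CPM in CD8+ TILs, below 1 CPM in each (ratio of means 120, log2 fold change -6.89 ± 0.7, adjusted p = 0.000136). Ccr4, a chemokine receptor of Treg and type 2 helper cells, was as even, at 40.9, 39.8, 36.4 and 37.4 against 0.509, 0.883, 0.134 and 0.75 CPM (adjusted p = 3.9e-05). Ccr6 was at 21.5, 9.67, 14.5 and 10.7 CPM in CD4+ TILs and at most 0.563 CPM in CD8+ TILs (adjusted p = 0.00258). Rora, a nuclear receptor of type 17 helper and Treg cells, was 6.44-fold higher in CD4+ TILs (adjusted p = 2.1e-05), and Il6ra 2.59-fold (adjusted p = 0.00279). Among the 13 members with too few counts to test were Il2, Il4 and Il17a.

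The cytotoxic list was higher in CD8+ TILs, but unevenly. Of 25 genes tested of 27, 11 (44%) were called higher in CD8+ and 2 (8%) higher in CD4+ TILs, against 4.89% and 6.96% of all genes tested. The median log2 fold change was 1.11. Without both replicate 1 libraries 14 and 2 were called. The genes with the clearest differences encode granule proteins other than the granzymes. Nkg7, a membrane protein of cytolytic granules whose promoter is shown above, was at 27.7, 46.6, 28.9 and 29.5 CPM in CD4+ and 166, 205, 197 and 220.3 CPM in CD8+ TILs. The lowest CD8+ library was more than 3 times the highest CD4+ library (log2 fold change 2.57 ± 0.19, adjusted p = 2.2e-05). Ctsw, cathepsin W of killer cells, was 3.77-fold higher in CD8+ TILs (96.2, 70.1, 82.7 and 90.3 against 398, 268, 281 and 331 CPM, adjusted p = 4.49e-05). Cst7, an inhibitor of granule cathepsins, was 3.97-fold (adjusted p = 0.000141) and Ctsd, cathepsin D, 2.06-fold higher (adjusted p = 0.000413).

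Prf1, which encodes perforin, was at 98.6, 105, 120 and 119 CPM in CD8+ TILs. In CD4+ TILs it was at 0, 11.2, 11.5 and 11 CPM, with the 0 in the library that had few genes detected. The groups were far apart in all libraries (log2 fold change 3.71 ± 0.85, adjusted p = 0.0157), the adjusted p rose to 0.0528 without CD8+ replicate 4, and it was 9.39e-08 without both replicate 1 libraries. Fasl, the death ligand, was at 6.03, 29.9, 28.7 and 22.5 CPM in CD4+ and 51.4, 74.5, 73.6 and 70.2 CPM in CD8+ TILs (log2 fold change 1.63 ± 0.4, adjusted p = 0.0214). Its groups did not overlap, but leaving out CD4+ replicate 4, CD8+ replicate 3 or CD8+ replicate 4 ended the call, with the adjusted p up to 0.0591.

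Granzymes gave the least even picture. Gzmb, granzyme B, was at 97.8, 206, 153 and 143 CPM in CD4+ and 121, 415, 321 and 439.6 CPM in CD8+ TILs. CD8+ replicate 1 lay within the CD4+ range, and with all libraries Gzmb was not called (log2 fold change 1.11 ± 0.35, adjusted p = 0.0643). It was called without CD8+ replicate 1 (1.44, adjusted p = 0.00351) and without both replicate 1 libraries (1.31, adjusted p = 0.000228). Gzma was at 0, 1.9, 0.666 and 4.48 CPM in CD4+ and 19.5, 12.6, 13.1 and 9.91 CPM in CD8+ TILs, with no overlap but an adjusted p of 0.0911 (0.00669 without both replicate 1 libraries). Gzmk overlapped between the groups, at 0.0331, 61.7, 29.1 and 18.7 and 66.8, 106, 52.9 and 64.7 CPM (adjusted p = 0.425). Gzmf was at 0, 0, 0.0475 and 0 CPM in CD4+ and 9.62, 3.06, 5.01 and 4.22 CPM in CD8+ TILs (adjusted p = 0.00197). Gzmd, another gene of that cluster, had no count in the 4 CD4+ libraries and 2.7, 0.753, 0.482 and 0.333 CPM in CD8+ TILs. It was at least 53.9-fold higher there against a floor of 3 counts over the group (26.4-fold without CD8+ replicate 1). The floor includes CD4+ replicate 1, and without that library both bounds would be lower. Reads of such close copies may have been split or lost in counting. Of the 2 cytotoxic genes called higher in CD4+ TILs, Stx11, a syntaxin needed for granule release, differed by -1.05 ± 0.2 on the log2 scale (adjusted p = 0.00545). The other was Srgn, serglycin, at -0.62 ± 0.16 (adjusted p = 0.0283).

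NK receptor genes had the highest median of all the lists, 2.37 over 29 genes tested of 33. With all libraries 9 (31%) were called higher in CD8+ TILs and 1 (3.45%), Klrg1, higher in CD4+ TILs, against 4.89% and 6.96% of all genes tested. Without both replicate 1 libraries 18 were called higher in CD8+ and 1 higher in CD4+ TILs. The summed level was 94.4 to 172 CPM in CD4+ and 714 to 899 CPM in CD8+ libraries. Klrc1, which encodes the inhibitory NKG2A chain, was at 7.88, 17.6, 12.8 and 19.1 CPM in CD4+ and 112, 168, 214 and 192 CPM in CD8+ TILs. Klrd1, which encodes CD94, the partner of the NKG2 chains, was at 7.85, 12.5, 19.6 and 16 against 141, 90.2, 139 and 102 CPM. Both were thus higher in every CD8+ library, with log2 fold changes of 3.58 ± 0.3 (adjusted p = 4.49e-05) and 3.07 ± 0.29 (adjusted p = 7.58e-05).

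Cd244a, the SLAM receptor 2B4, separated the lineages most among the NK receptors named here, at 2.91, 1.88, 0.285 and 3.03 CPM in CD4+ and 57.6, 46.1, 57.4 and 49.9 CPM in CD8+ TILs (26-fold, adjusted p = 0.00042). Klra7, a Ly49 receptor for class I molecules, was 6.75-fold (adjusted p = 0.000115), Klrc2, the activating NKG2C chain, 7.56-fold (adjusted p = 0.00206) and Cd7 3.52-fold higher in CD8+ TILs (adjusted p = 0.000441). Klrk1, which encodes the activating receptor NKG2D, was at 129, 125, 154 and 149 CPM in CD8+ TILs. It was at 0.0662, 23.7, 31.5 and 31.8 CPM in CD4+ TILs, where replicate 1 alone was near 0. With all libraries it was not called (log2 fold change 2.67 ± 0.87, adjusted p = 0.0748), and without CD4+ replicate 1 it was (2.35, adjusted p = 7.36e-06). Klrg1, 1 of 5 tested members with a negative log2 fold change, was at 17.5, 18.1, 15.4 and 11.5 CPM in CD4+ and 4.34, 5.24, 0.804 and 1.25 CPM in CD8+ TILs (log2 fold change -2.42 ± 0.59, adjusted p = 0.022). The Klra and Klrc genes are families of near copies, so values of single members are uncertain.

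**Figure D3:**
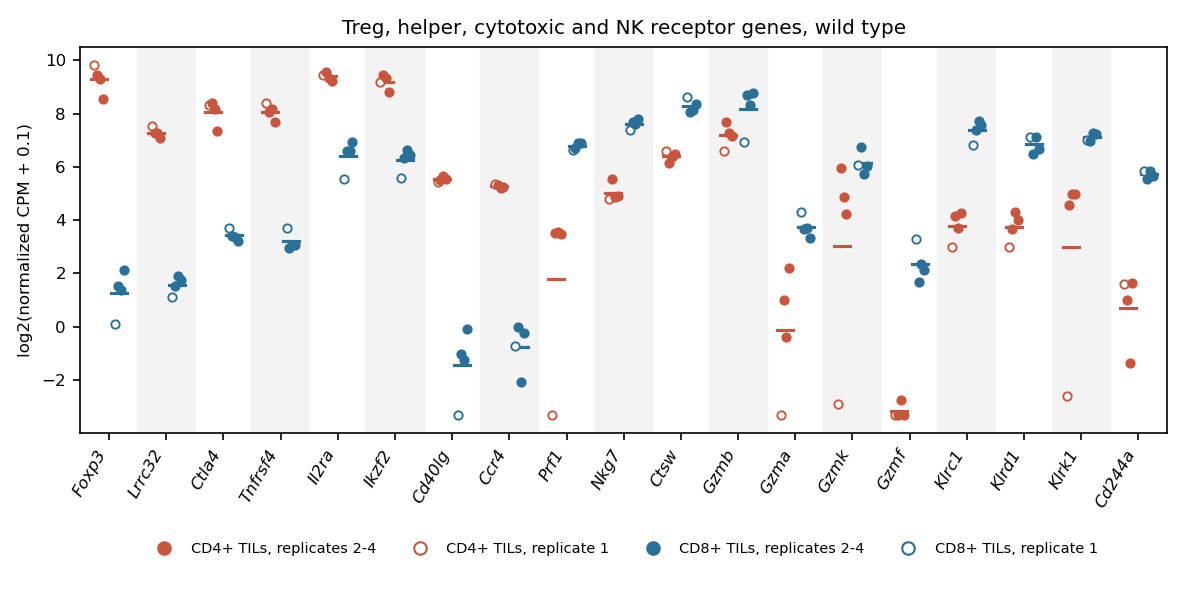
Normalized CPM, as log2(CPM + 0.1), of Treg, helper, cytotoxic and NK receptor genes in each WT library; red points are CD4+ and blue points CD8+ TILs, open points are replicate 1 of each and bars are the means of the 4 log2 values. Foxp3, Lrrc32 and Ctla4 lie higher in all 4 CD4+ libraries and Nkg7, Klrc1 and Cd244a in all 4 CD8+ libraries, while Prf1, Gzma, Gzmk and Klrk1 are lowest in CD4+ replicate 1.

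Of 27 tested regulators of effector T cells, 4 (14.8%) were called higher in CD8+ and 9 (33.3%) higher in CD4+ TILs. Of all genes tested, 4.89% and 6.96% were. The median was -0.41 (6 and 13 called without both replicate 1 libraries). Eomes, a T-box factor of killer and memory cells, was at 17.3, 33.7, 16.3 and 12.6 CPM in CD4+ and 206, 254, 206 and 227 CPM in CD8+ TILs. It was 11.2-fold higher in CD8+ TILs in the ratio of means (log2 fold change 3.48 ± 0.28, adjusted p = 3.9e-05). Its relative Tbx21, or T-bet, differed far less, at 31.7, 31.9, 24.6 and 30.7 against 33, 69.3, 60.1 and 69.2 CPM (log2 fold change 0.96 ± 0.24, adjusted p = 0.0235). CD8+ replicate 1 was near the CD4+ level, and leaving out any 1 of CD4+ or CD8+ replicates 2, 3 or 4 ended the call, with the adjusted p up to 0.0866. Id2, which restrains E proteins in effector cells, was 2.35-fold higher in CD8+ TILs (adjusted p = 0.000593).

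Maf, a factor of helper and Treg cells, had the third smallest p of all genes. It was at 435, 346, 350.1 and 278 CPM in CD4+ TILs and at 1.95, 3.82, 4.77 and 4.25 CPM in CD8+ TILs. The ratio of means was 95.3 (log2 fold change -6.57 ± 0.3, adjusted p = 7.37e-07). Stat5b, which carries signals of IL-2 and IL-7, was 2.53-fold (adjusted p = 0.000525) and Nfil3 2.57-fold higher in CD4+ TILs (adjusted p = 0.000799).

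Inhibitory receptors and exhaustion genes differed in both directions. Of 22 tested, 3 (13.6%) were called higher in CD8+ and 6 (27.3%) higher in CD4+ TILs, against 4.89% and 6.96% of all genes tested. The median was -0.43 (6 and 10 called without both replicate 1 libraries). Some of the 6 higher in CD4+ TILs, such as Ctla4, Tigit and Ikzf2, are also on the Treg list. Pdcd1, which encodes PD-1, was at 179, 154, 165 and 142 CPM in CD4+ and 68.5, 84, 72.3 and 89 CPM in CD8+ TILs. It was 2.04-fold higher in CD4+ TILs with no overlap (log2 fold change -1.03 ± 0.14, adjusted p = 0.00071). Havcr2, which encodes TIM-3, went the other way, at 62.4, 71.5, 62.5 and 38.4 against 111, 119.8, 106 and 102 CPM (1.87-fold higher in CD8+ TILs, adjusted p = 0.00939). Lag3 was not called (log2 fold change 0.8 ± 0.33, adjusted p = 0.164), nor was Tox. Lag3 was called higher in CD8+ TILs without both replicate 1 libraries (0.73, adjusted p = 0.0369).

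Of 21 tested genes of naive and memory cells, 4 (19%) were called higher in CD8+ and 6 (28.6%) higher in CD4+ TILs. Of all genes tested, 4.89% and 6.96% were. The median was -0.16 (6 and 9 called without both replicate 1 libraries). Bcl2, which protects lymphocytes from apoptosis, was at 127, 189.5, 229 and 234 CPM in CD4+ and 822, 779, 877 and 776 CPM in CD8+ TILs. The CD8+ libraries were close to each other and all above 3 times the highest CD4+ library (log2 fold change 2.06 ± 0.18, adjusted p = 5.38e-05). Igfbp4, an IGF-binding protein, was 3.18-fold higher in CD8+ TILs (adjusted p = 0.00185). Il7r, the IL-7 receptor chain of naive and memory cells, was at 406, 526, 647 and 693 CPM in CD4+ and 273, 144, 195 and 171 CPM in CD8+ TILs (2.9-fold higher in CD4+ TILs, adjusted p = 0.0011). Slamf6 (3.13-fold, adjusted p = 0.00143) and Cd28 (2.47-fold, adjusted p = 0.00101) were also higher in CD4+ TILs. Tcf7, which encodes TCF-1, differed by -0.55 ± 0.13 on the log2 scale (adjusted p = 0.0207), and without CD4+ replicate 3 or 4 or CD8+ replicate 2, 3 or 4 the adjusted p was up to 0.101. S1pr1, needed to leave tissue, differed by -0.75 ± 0.16 (adjusted p = 0.0106, 0.0505 without CD8+ replicate 2).

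Homing and adhesion genes divided between the lineages. Of 22 tested chemokines and chemokine receptors, 4 (18.2%) were called higher in CD8+ and 6 (27.3%) higher in CD4+ TILs. Of all genes tested, 4.89% and 6.96% were. The median of the list was 0.03. The counts were 8 and 7 without both replicate 1 libraries. Cxcr6, a receptor of tissue-resident T cells, was at 51.3, 149, 81.2 and 96 CPM in CD4+ and 194, 282, 291 and 264 CPM in CD8+ TILs (2.73-fold, adjusted p = 0.0059). Ccl5 and Cx3cr1 were also called higher in CD8+ TILs. Cxcr3, which responds to interferon-induced chemokines, was 2.24-fold higher in CD4+ TILs (165, 159, 149 and 129 against 58, 72.1, 62.7 and 76.5 CPM, adjusted p = 0.000441). Cxcr4 (3.29-fold, adjusted p = 0.000253) and Ccr2 (2.88-fold, adjusted p = 0.00206) were higher in CD4+ TILs with no overlap.

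Of 27 tested adhesion genes, 5 (18.5%) were called higher in CD8+ and 7 (25.9%) higher in CD4+ TILs, against 4.89% and 6.96% of all genes tested. The median of the list was -0.1. The counts were 9 and 10 without both replicate 1 libraries. Itga1, the CD49a chain that binds collagen, was at 6.89, 25.1, 32.1 and 25.1 CPM in CD4+ and 109, 99.3, 129 and 112 CPM in CD8+ TILs (5.04-fold, adjusted p = 0.00207). Itgae, the CD103 chain that binds E-cadherin, was higher in CD4+ TILs, at 89.4, 118, 93.3 and 79.7 against 33, 23.5, 46.5 and 34 CPM (2.78-fold, adjusted p = 0.00143). These 2 integrins of tissue-resident T cells thus went in opposite directions. The laminin receptor chain Itga6 was among the most even differences, at 227, 218, 251 and 216 against 77.7, 74.8, 78.9 and 76.3 CPM (log2 fold change -1.57 ± 0.11, adjusted p = 1.79e-05). Itgb7, the partner of Itgae, was 2.24-fold (adjusted p = 6.31e-05) and Itgb3 6.81-fold higher in CD4+ TILs (adjusted p = 0.000441).

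Of 26 tested cytokines and cytokine receptors, 2 (7.69%) were called higher in CD8+ and 8 (30.8%) higher in CD4+ TILs. Of all genes tested, 4.89% and 6.96% were. The median was -0.38 (6 and 10 called without both replicate 1 libraries). Ifng, the cytokine of type 1 responses, was low in both, at 2.62, 4.3, 2.07 and 2.3 CPM in CD4+ and 10.9, 7.24, 8.44 and 12.1 CPM in CD8+ TILs. The groups did not overlap (log2 fold change 1.78 ± 0.47, adjusted p = 0.0326), but without CD4+ replicate 3 or 4 or CD8+ replicate 2, 3 or 4 the call was lost, with the adjusted p up to 0.16. Its receptor chain Ifngr1 was 2.95-fold higher in CD4+ TILs, at 1071, 1329, 1512 and 915 against 286, 434, 439 and 479.8 CPM (adjusted p = 0.00051). Il18r1 (1.95-fold, adjusted p = 0.008), Tgfb1 (1.71-fold, adjusted p = 0.00207) and the TGF-β coreceptor Tgfbr3 (3.85-fold, adjusted p = 0.00392) were higher in CD4+ TILs as well.

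TCR signaling genes differed in both directions, with a median near 0. Of 39 tested, 5 were called higher in CD8+ and 7 higher in CD4+ TILs, with a median of 0.01. These are 12.8% and 17.9% of the list, against 4.89% and 6.96% of all genes tested, and 29.4% of genes at 100 CPM or more were called in either direction. The balance turned without both replicate 1 libraries, with 11 called higher in CD8+ and 8 higher in CD4+ TILs. The summed level of the list was 10242 to 10970.5 CPM in CD4+ and 10175 to 10456 CPM in CD8+ libraries. Genes called higher in CD4+ TILs included Cd5 (224, 233, 183 and 178 against 67.7, 66.1, 53.4 and 52.3 CPM, 3.42-fold, adjusted p = 4.57e-05) and Cd6 (2.05-fold, adjusted p = 0.000177), scavenger receptors that restrain TCR signals. Sla, an adaptor that lowers TCR levels, was 2.8-fold higher in CD4+ TILs (adjusted p = 0.000177). The TCR chain Cd247 (1.62-fold, adjusted p = 0.00195) and the phospholipase Plcg1 (1.74-fold, adjusted p = 0.000966) were also higher there. Txk, a Tec family kinase, was 2.59-fold higher in CD8+ TILs (84.7, 48.2, 57.3 and 55.7 against 192, 140.4, 162 and 142 CPM, adjusted p = 0.000933). Lck, the kinase bound to both coreceptors, was at 303, 327, 311 and 315 CPM in CD4+ and 386, 442, 369.5 and 467 CPM in CD8+ TILs. The groups did not overlap, the log2 fold change was 0.41 ± 0.11 (adjusted p = 0.0372), and without CD4+ replicate 2 or 3 or CD8+ replicate 2, 3 or 4 the adjusted p was up to 0.147.

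The costimulation list had its calls in CD4+ TILs. Of 18 tested, 10 (55.6%) were called higher in CD4+ TILs, against 6.96% of all genes tested, and none higher in CD8+ TILs. The other 8 were not called, and the median was -1.19 (11 and 1 called without both replicate 1 libraries). Tnfrsf9, or 4-1BB, was at 255, 413, 470 and 333 CPM in CD4+ and 79.4, 89.3, 114 and 116 CPM in CD8+ TILs (3.69-fold, adjusted p = 0.000194). Slamf1, a self-binding receptor of the SLAM family, was 3.91-fold higher in CD4+ TILs (adjusted p = 0.000401). Icos, Cd28, Tnfrsf4, Tnfrsf18 and Cd40lg, given above, are also on the list.

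Of 31 tested genes induced by TCR signals, 3 (9.68%) were called higher in CD8+ and 9 (29%) higher in CD4+ TILs. Of all genes tested, 4.89% and 6.96% were. The median was -0.6 (9 and 14 called without both replicate 1 libraries). Those higher in CD4+ TILs included inhibitors of the pathway. Dusp4, a phosphatase of MAP kinases, was at 99.7, 155, 121 and 129.7 CPM in CD4+ and 2.07, 11.1, 8.2 and 10.7 CPM in CD8+ TILs (15.8-fold, adjusted p = 0.000227). Dusp1 was 4.63-fold (adjusted p = 0.00288), the NF-κB inhibitors Tnfaip3 3.62-fold (adjusted p = 0.000382) and Nfkbia 2.43-fold (adjusted p = 0.00378), and Crem, a cAMP-responsive factor, 5.15-fold higher in CD4+ TILs (adjusted p = 0.00218). Myc, a driver of growth after activation, was 3.1-fold higher in CD8+ TILs, at 49.9, 38.7, 41.1 and 47.7 against 133, 135, 132 and 151 CPM (adjusted p = 4.49e-05). Nr4a1, an immediate early gene, was at 5.93, 15.7, 17.5 and 18.6 CPM in CD4+ and 0, 6.15, 6.97 and 9.44 CPM in CD8+ TILs, overlapped and was not called (adjusted p = 0.464). It was called higher in CD4+ TILs without both replicate 1 libraries (-1.11, adjusted p = 0.00403).

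Every gene of the cell cycle list had a positive log2 fold change. Of 35 tested, 12 (34.3%) were called higher in CD8+ TILs, against 4.89% of all genes tested, and none higher in CD4+ TILs. The median was 0.88. Without both replicate 1 libraries 27 were called, all higher in CD8+ TILs, with a median of 1.08. Mcm5, of the replicative helicase, was at 38.1, 67.9, 47.2 and 84.5 CPM in CD4+ and 109.5, 219.7, 155 and 212 CPM in CD8+ TILs (2.93-fold, adjusted p = 0.00442). Mcm3 was 2.49-fold (adjusted p = 0.00783), Mcm7 2.11-fold (adjusted p = 0.00746), the sliding clamp Pcna 1.84-fold (adjusted p = 0.00692) and the ribonucleotide reductase subunit Rrm2 2.57-fold higher in CD8+ TILs (adjusted p = 0.0125). Top2a, a topoisomerase of dividing cells, was at 160.2, 238, 133 and 116 CPM in CD4+ and 247, 490.1, 331 and 354 CPM in CD8+ TILs (adjusted p = 0.0127), where CD8+ replicate 1 was close to the highest CD4+ library. Mki67 was not called (log2 fold change 0.17 ± 0.27).

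None of the 18 tested glycolysis genes was called in edgeR with all libraries (median 0.02), against 4.89% and 6.96% of all genes tested. At an unadjusted p under 0.05, 4 were higher in CD8+ and 1 higher in CD4+ TILs, and 3626 of all 14892 genes passed that value. DESeq2 called 1 glycolysis gene in each direction, and 2657 of the 14892 genes in all. Of the 18 glycolysis genes, 8 were called higher in CD8+ and 2 higher in CD4+ TILs without both replicate 1 libraries. Of 34 genes of the interferon response, 5 were called higher in CD4+ and none higher in CD8+ TILs, with a median of -0.63 (20 and 1 without both replicate 1 libraries). The 5 are 14.7% of the list, against 6.96% of all genes tested called in that direction and 11.9% in either. They include 3 guanylate-binding proteins of the interferon-γ response. Gbp3 was at 318, 342, 347 and 376 CPM in CD4+ and 58.7, 139, 126 and 147 CPM in CD8+ TILs (2.93-fold, adjusted p = 0.00189), Gbp7 1.93-fold (adjusted p = 0.00431) and Gbp5 2.33-fold higher in CD4+ TILs (adjusted p = 0.00908). Stat2, of the type I interferon receptor pathway, was 1.86-fold higher in CD4+ TILs (adjusted p = 0.014), and the call was lost without CD4+ replicate 4 or CD8+ replicate 2 (adjusted p up to 0.0549). Oas1a was 2.23-fold higher (adjusted p = 0.0389), with the call lost without any 1 of CD4+ replicates 2, 3 and 4 and CD8+ replicates 1, 2 and 3 (adjusted p up to 0.131). The summed level of the list was lowest in replicate 1 of each cell type, 2352 CPM in CD4+ and 1564 CPM in CD8+ TILs, against 5581 to 7136 and 3390.1 to 4143 CPM in the other libraries.

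**Figure D4:**
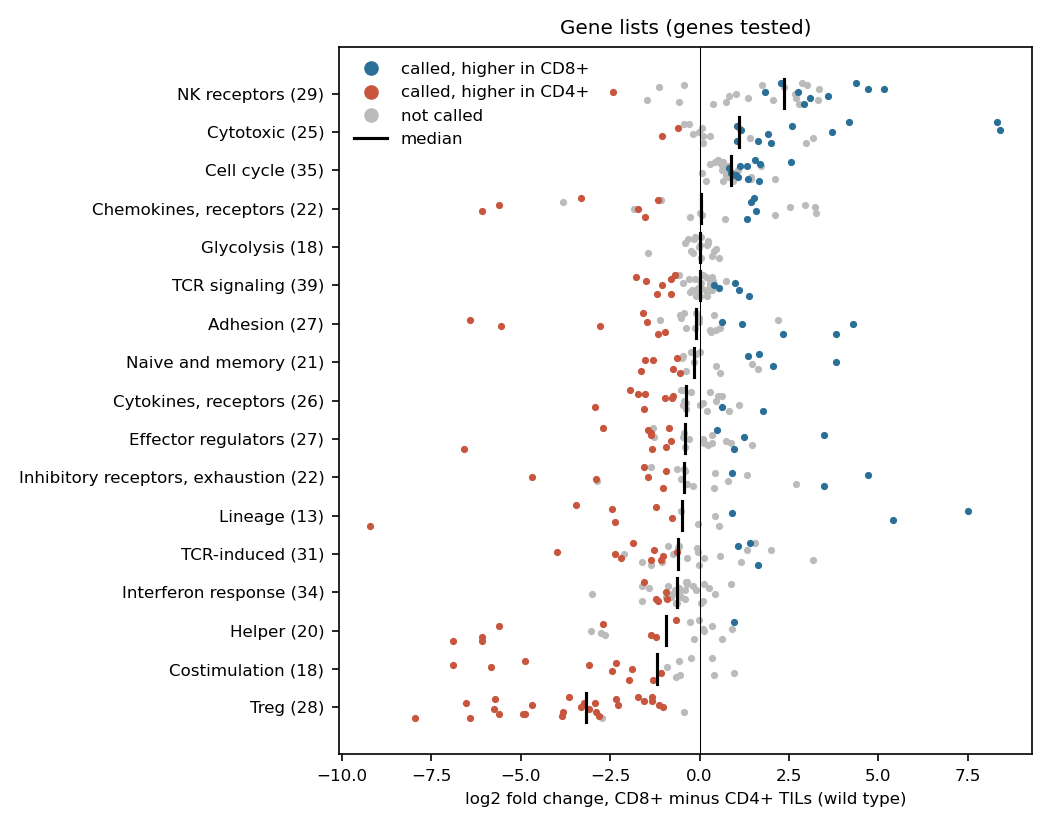
Log2 fold change of CD8+ over CD4+ TILs (x axis) for each tested gene of 17 gene lists (y axis, number of genes tested in brackets), ordered by the median (black bar); blue and red points are genes called higher in CD8+ and in CD4+ TILs and grey points genes not called. NK receptor genes have the highest median (2.37) and Treg genes the lowest (-3.16), and all 35 cell cycle genes are to the right of 0.

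The largest fold changes were of genes nearly silent in 1 lineage, and their fitted values depend on the prior count. Among genes with at least 5 CPM in the higher group and no overlap, those higher in CD8+ TILs included Syt6, a synaptotagmin, at 10.9, 3.09, 3.86 and 4.86 CPM. Syt6 had no count in the 4 CD4+ libraries. Against a floor of 3 counts over the group, it was at least 287-fold higher in CD8+ TILs (199-fold without CD8+ replicate 1). The floor includes CD4+ replicate 1, and without that library both bounds would be lower. Drc1, a gene of motile cilia, was at 19.2, 23.9, 22.4 and 19.1 CPM in CD8+ TILs and 0, 0.476, 0.262 and 0.369 CPM in CD4+ TILs (ratio of means 76.5, adjusted p = 0.000415). Both groups were narrow, unlike for most genes of this kind. Glp1r, the receptor of an incretin hormone, was at 21.9, 2.52, 11.8 and 6.47 CPM in CD8+ TILs and at most 0.666 CPM in CD4+ TILs (adjusted p = 0.0215). Its call was lost without CD4+ replicate 4, CD8+ replicate 1 or CD8+ replicate 3 (adjusted p up to 0.0663). Ctnnd2, Kcnc1 and Slc6a19 were above 2 CPM in every CD8+ library and below 0.5 CPM in every CD4+ library, with adjusted p from 0.00695 to 0.0119.

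Smyd1, a methyltransferase known from muscle, was at 6.92, 8.85, 11.5 and 9.88 CPM in CD8+ and 0, 0.476, 0 and 0.199 CPM in CD4+ TILs (ratio of means 55.1, adjusted p = 0.011). It lies at chr6:71213940-71322233, minus strand, and its annotated start is 554 bases from the start of Cd8b1 on the opposite strand, so that the 2 genes lie head to head. Whether its counts came from its own transcript or from reads of the neighbouring CD8 locus was not tested.

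Among genes higher in CD4+ TILs, Nckap5 was at 24.7, 3.87, 2.12 and 5.3 CPM and Pdlim4 at 14.8, 0.589, 2.54 and 2.61 CPM. Both had no count in the 4 CD8+ libraries, so they were at least 436-fold and 249-fold higher in CD4+ TILs. The floor includes CD8+ replicate 1, and without that library these bounds would be lower. Rhcg, an ammonium transporter, was at 14.4, 3.71, 1.83 and 1.73 CPM and Kynu, kynureninase of tryptophan breakdown, at 15.2, 2.54, 2.62 and 0.907 CPM in CD4+ TILs, with at most 0.111 CPM in CD8+ TILs. In all 4 genes CD4+ replicate 1, the library with the fewest genes detected, was the highest by far. Without it their log2 fold changes moved from -11.38, -10.58, -7.81 and -6.9 to -10.12, -9.14, -6.58 and -5.43, and the 4 stayed called. Without it the bounds for Nckap5 and Pdlim4 were 182-fold and 92.7-fold. Leaving out 1 other library moved the fitted log2 fold change by more than log2(1.5) for Cd4 and Cd40lg (to -9.95 and -7.56 without CD8+ replicate 4), Gzmf, Ctnnd2 and Glp1r (10.64, 10.68 and 6.93 without CD4+ replicate 3), Kcnc1 (7.68 without CD4+ replicate 4), Slc6a19 and Smyd1 (6.74 and 7.06 without CD4+ replicate 2), Ebi3 (-8.08 without CD8+ replicate 2) and Itgb8 (-7.29 without CD8+ replicate 3), each time away from 0. For Rhcg and Kynu it moved to -10.65 and -7.96 without CD8+ replicate 4.

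Markers of other cell types were not equal between the lineages. The myeloid list summed to 70.2 to 124 CPM in CD4+ and 32.4 to 34.5 CPM in CD8+ libraries. Of its 26 genes, 12 could be tested, and 4 (S100a8, S100a9, Clec9a and Siglech) had no count in any of the 8 libraries. Called higher in CD4+ TILs were 2 (Cybb and Cd74, 16.7%), against 6.96% of all genes tested. Called higher in CD8+ TILs was 1 (Itgax, 8.33%), against 4.89%. Cybb, a subunit of the phagocyte oxidase, was at 20.9, 41, 44 and 17.5 CPM in CD4+ and 1.65, 3.27, 4.13 and 3.05 CPM in CD8+ TILs (adjusted p = 0.000511). Cd74, the invariant chain of class II molecules, was 5.47-fold higher in CD4+ TILs (adjusted p = 0.00189). The macrophage genes Adgre1, C1qa and Mrc1 had at most 19, 19 and 34 counts in any CD4+ library and at most 11, 16 and 10 in any CD8+ library. Other members of the list had more, with Apoe at 143 to 478 counts in CD4+ and 162 to 426 in CD8+ libraries. Cd68 had 45 to 174 and 46 to 191 counts, and Lyz2 had 0 to 371 and 7 to 75. Itgax, or CD11c, was at 10.3, 4.02, 6 and 4.61 CPM in CD8+ and 0, 0.997, 0.19 and 0.0567 CPM in CD4+ TILs (adjusted p = 0.0466). Its call was lost in 6 of the 8 fits that left out 1 library (all but CD4+ replicates 1 and 2), with the adjusted p up to 0.122, and without CD4+ replicate 2 its log2 fold change moved from 4.29 to 6.14.

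The B cell list summed to 131 to 244 CPM in CD4+ and 55.2 to 72.5 CPM in CD8+ libraries, nearly all of it from Ighm. Of its 14 genes 5 were tested and 1 (20%) was called higher in CD4+ TILs, against 6.96% of all genes tested. It was Ighm, the constant region of IgM, at 219, 238, 187 and 126 CPM in CD4+ and 50.1, 65.1, 61.7 and 54.7 CPM in CD8+ TILs (3.33-fold, adjusted p = 0.000273). Ms4a1, which encodes the B cell antigen CD20, had at most 23 counts in any CD4+ library and at most 51 in any CD8+ library, and Vpreb3 and Mzb1 had none. Cd79b had 13 to 197 counts in CD4+ and 0 to 69 in CD8+ libraries. Cd22 had 16 to 135 and 36 to 65 counts, Cd79a 0 to 179 and 0 to 23, and Igkc 0 to 268 and 54 to 158. Of 14 stromal genes 5 were tested and 1 (20%) was called higher in CD4+ TILs, against 6.96% of all genes tested. Pecam1, CD31 of endothelium and of some leukocytes, was 2.75-fold higher there (94.5, 91.6, 123 and 119 against 35.9, 36.4, 38.1 and 45.6 CPM, adjusted p = 0.000235). The endothelial genes Cdh5, Vwf and Emcn had at most 4 counts in any library and Lum had none. Col1a1 had 16 to 334 counts in CD4+ and 0 to 51 in CD8+ libraries, and Fn1 had 0 to 124 and 0 to 21.

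Of 13 melanoma genes 6 were tested and none was called in edgeR, against 4.89% and 6.96% of all genes tested. So few genes can be without a call at these shares. At an unadjusted p under 0.05, 1 was higher in CD8+ and 2 higher in CD4+ TILs, and 3626 of all 14892 genes passed that value. DESeq2 called 1 melanoma gene in each direction, and 2657 of the 14892 genes in all. The 13 melanoma genes summed to 103 CPM in CD4+ replicate 1 and to 7.29 to 16.4 CPM in the other 7 libraries. Of 10 genes of γδ and NKT cells, 8 were tested and 1 (12.5%) was called higher in CD8+ TILs, against 4.89% of all genes tested. This was Tcrg-C2, a constant region of the γ locus, at 21.9, 6.32, 3.71 and 4.34 CPM in CD4+ and 82, 84.4, 90.2 and 87.1 CPM in CD8+ TILs (log2 fold change 3.25 ± 0.51, adjusted p = 0.00208; 4.24 without CD4+ replicate 1, which was the highest CD4+ library). Of the list, 3 were called higher in CD8+ and 2 higher in CD4+ TILs without both replicate 1 libraries. Trdc, the δ constant region, which defines γδ cells, was not called (log2 fold change 0.97 ± 0.61, adjusted p = 0.379). The part of other cells in the differences between the lineages was not tested.

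Sirt2, the gene deleted in the other genotype, was at 75.3, 42.7, 43.4 and 47.7 CPM in CD4+ and 51, 34.4, 33 and 33.2 CPM in CD8+ TILs of WT mice. Replicate 1 was the highest in both, the groups overlapped, and Sirt2 was not called (log2 fold change -0.46 ± 0.24, adjusted p = 0.263). Xist, transcribed from the inactive X chromosome, was not called either (adjusted p = 0.811). Several printed genes overlap others in the annotation, among them Gzmk with Esm1, Cd244a with Ly9, Cxcr6 with Fyco1, Sla with Tg and Foxp3 with Flicr and Ppp1r3f. Whether counting used the strand of the reads is not given in the sources used here, so reads of overlapping genes cannot be told apart.

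The lineage contrast was repeated in the 8 libraries of Sirt2-/- mice, which share no library with the WT comparison. There 354 of 15787 genes were called (2.24%), with 1 CD4+ library (replicate 4) in which 34.9% of abundant genes had no count. Without both replicate 4 libraries, 3631 of 16165 genes were called (22.5%). Of the 1765 genes called in WT TILs, 1758 were tested there, 1751 had the same sign (99.6%) and 1420 were called in the same direction, which is 80.5% of the WT calls and 39.1% of the Sirt2-/- calls. With all Sirt2-/- libraries, 1710 of 1752 had the same sign (97.6%) and 307 were called. Across 14656 genes the log2 fold changes of the 2 genotypes had a Pearson correlation of 0.688 as a description, over genes that are not independent. When both replicate 1 libraries were left out of the WT fit as well, 4348 of its 4394 calls were tested in Sirt2-/- TILs without replicate 4. Of these, 4302 had the same sign (98.9%) and 2832 were called in the same direction, which is 64.5% of those WT calls. The correlation was then 0.76 across 15139 genes.

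For single genes the values of both genotypes can be set side by side. Cd4 differed by -7.8 on the log2 scale in Sirt2-/- TILs without replicate 4 and by -9.2 in WT TILs, Cd8b1 by 5.31 and 5.4, Foxp3 by -7.27 and -7.97, Ctla4 by -4.35 and -4.69, Nkg7 by 2.98 and 2.57, and Eomes by 3.15 and 3.48. Some of the largest WT values were smaller there, in genes named for the size of those values. A choice by size in WT TILs favors genes whose values are larger in these libraries than in others. Syt6 was at 4.47 and 10.72 (-0.27 with all Sirt2-/- libraries), Pdlim4 at -4.44 and -10.58 and Drc1 at 3.57 and 6.21. Others were closer, such as Nckap5 (-10.1 and -11.38) and Glp1r (5.32 and 5.5). Igfbp4 was at 0.51 and 1.67. Pdcd1 (-0.41, adjusted p = 0.577) and Itgae (0.14, adjusted p = 0.875) were not called in Sirt2-/- TILs, and their differences from WT had adjusted p of 1 and 1 in edgeR. A test of the difference between the 2 contrasts over all 16 libraries called 0 of 17270 genes in edgeR (0%), with 342 genes at an unadjusted p under 0.05, and DESeq2 called 2. One was Maf, with a log2 fold change of -6.57 in WT and -4.66 in Sirt2-/- TILs without replicate 4, a difference of -1.88 in DESeq2 (adjusted p = 0.0131) and an adjusted p of 0.76 in edgeR. The other, Prss30, had at most 1 count in the Sirt2-/- CD4+ libraries and 8 to 60 in the WT CD4+ libraries, against 25 to 72 and 0 to 18 in the CD8+ libraries.

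**Figure D5:**
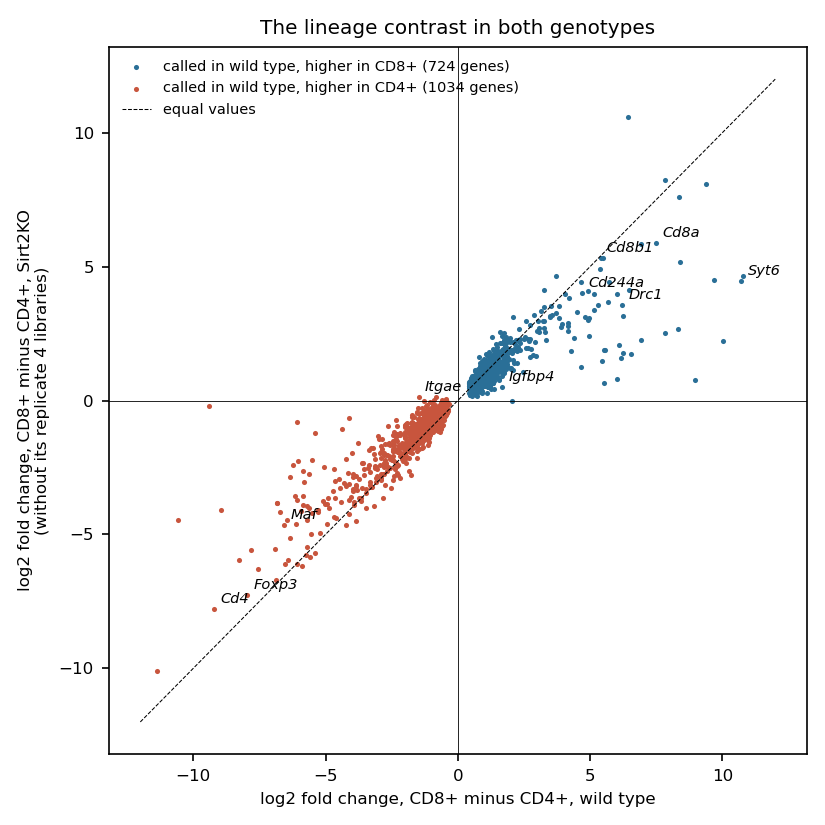
Log2 fold change of CD8+ over CD4+ TILs in WT mice (x axis, all 8 libraries) and in Sirt2-/- mice (y axis, 6 libraries, without both replicate 4 libraries) for the 1758 genes called in WT TILs and tested in both, 724 higher in CD8+ (blue) and 1034 higher in CD4+ TILs (red); the dashed line marks equal values. In 1751 of the 1758 genes both values have the same sign.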

How the data were processed

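RNA of CD4+ and CD8+ TILs was sequenced, and the authors deposited 1 table of raw read counts per gene, made with STAR and HTSeq on mm10 per the submitters' processing notes. Tool versions and the use of strand in counting are not given in the sources used here. The 55450 gene IDs are those of GENCODE release 21 for mouse. Counts of the 8 WT libraries were filtered with filterByExpr, normalized by TMM and compared in edgeR 4.0.16 (R 4.3.3) by the quasi-likelihood test without covariates, with Benjamini-Hochberg adjustment over all genes tested. CPM were computed from the counts and TMM factors for display, and lists were summed on that scale. DESeq2 1.42.0 and limma 3.58.1 (voom) served as alternatives, and each library was left out in turn. The procedure was also run on counts simulated from the mean and spread of each gene. Loss of many genes in a single library was not simulated, so that run does not bear on replicate 1 of either cell type. Named genes were the 10 with the largest fold change in each direction among called genes with at least 5 CPM in the higher group and no overlap, leaving out TCR and immunoglobulin segments, predicted (Gm, Rik) genes and chromosome Y, up to 6 called members of each list with the smallest p, the lineage list, and 24 T cell and control genes whatever they showed. Gene symbols outside this rule are said to be so or were chosen with their values in view. The members, lists and alternatives were chosen with earlier results of these data known. A few list members are not reported here. Depth in total counts is given with the results, and low counts limit genes below about 1 CPM.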

Additional observations from a re-analysis of the deposited data

Results flagged for a closer look

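A library was marked where it stood apart from the other 3 of its group by Dixon's criterion (the gap to its nearest neighbour over the range of the group), which chance alone meets in about 1 of 20 groups. Of 286 groups of 4 values of named genes, 30 were marked, 13 of them by CD4+ replicate 1 and 6 by CD8+ replicate 1. In normalized CPM, CD4+ replicate 1 was the lowest for Bcl11b (317), Prf1 (0), Stat5b (220), Itgb3 (57.3) and Slamf1 (39.8). It was the highest for Sirt2 (75.3), Nckap5 (24.7), Pdlim4 (14.8), Rhcg (14.4), Kynu (15.2), Klrc2 (6.69), Dusp1 (48.3) and Tcrg-C2 (21.9). CD8+ replicate 1 was the lowest for Cd8b1 (443), Atp8b4 (181) and Itih5 (6.26) and the highest for Sirt2 (51), Tnfrsf4 (12.9) and B4galnt4 (22.9).

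In other CD4+ libraries, replicate 2 was the highest for Nkg7 (46.6) and Pcna (89.3), replicate 3 the lowest for Tbx21 (24.6) and the highest for Gzmf (0.0475) and Ctnnd2 (0.166), and replicate 4 the lowest for Runx1 (77.6). In other CD8+ libraries, replicate 2 was the highest for Bcl11b (270.3), replicate 3 for Icos (51) and replicate 4 for Rhcg (0.0833), Myc (151) and Arhgef11 (8.94).

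Of 8 groups of library measures 5 were marked. CD4+ replicate 1 had the lowest total (28000949 counts) and the highest percentage of abundant genes at 0 (7.26%), CD8+ replicate 1 had the fewest genes with a count (14411) and the highest percentage at 0 (1.57%), and CD4+ replicate 4 had 27.9% of its counts on 5 genes. Of 44 groups of list sums 4 were marked. CD8+ replicate 1 was the lowest for the helper (431 CPM) and chemokine lists (965 CPM) and the highest for the melanoma list (12.8 CPM), and CD4+ replicate 1 was the highest for the melanoma list (103 CPM).

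In DESeq2 the lineage difference itself differed between genotypes for 2 genes, by -8.94 on the log2 scale for Prss30 (adjusted p = 0.00122) and by -1.88 for Maf (adjusted p = 0.0131). In counts, Maf was at 65, 147, 178 and 153 in WT and at 500, 611, 602 and 629 in Sirt2-/- CD8+ TILs. edgeR called neither.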

How the results depend on the processing

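With all 8 libraries 1765 genes were called, 728 higher in CD8+ and 1037 higher in CD4+ TILs. Counts were 2657 with DESeq2 (1228 higher in CD8+ TILs), 5504 with limma-voom and quality weights (2504 and 3000), 811 with all 16 libraries in 1 model (379 and 432) and 4394 without both replicate 1 libraries (2331 and 2063). Leaving out 1 library in turn gave 1022 to 2767 calls, 384 to 1485 higher in CD8+ and 544 to 1282 higher in CD4+ TILs. The highest total was without CD4+ replicate 1 and the lowest without CD8+ replicate 4, and each such fit has fewer samples. Other normalizations and filters kept the total within 1.5 times, and scaling moved the median of all genes by under 0.1 on the log2 scale. The Sirt2-/- count of 354 became 3631 without both replicate 4 libraries, 1340 with DESeq2 and 108 with a replicate block. The difference between genotypes gave 0 calls in edgeR and 2 in DESeq2. The cause of these changes was not tested beyond the libraries left out.

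The naming rule and the genes chosen after their values were seen, described under other observations, gave 143 genes. Of these, 131 were called, of which 120 were called in every fit that left out 1 library. Further genes mentioned in the text, such as Klrg1, Srgn, Gzmd, Ccl5 and Cx3cr1, were not followed through these fits. The model of all 16 libraries lost 30 calls. Satb1, at -0.03, had the other sign with DESeq2 (0), DESeq2 size factors (0), upper quartile scaling (0.01), no filter (0.05), a minimum of 10 counts (0.02), all 16 libraries (0.05), the replicate block (0.03) and without 1 library in turn (-0.12 to 0.22, of either sign). Xist, at 0.43, was at -0.3 with limma-voom.

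The labels do not tie equal replicate numbers to an animal. Deviations of CD4+ and CD8+ libraries of the same number correlated at 0.123, 0.11, 0.133 and 0.098, and each WT library correlated best with its own number, a hint from the data and not from the design. In Sirt2-/- libraries the values were 0.15, 0.026, -0.018 and -0.023. Xist was lowest in replicate 2 of both WT cell types, at 70 and 60.5 CPM. With a replicate block 1619 genes were called (683 and 936), of which 1395 were among the 1765, and 7 of the 143 genes lost their call (Prf1, Ifng, Tbx21, Glp1r, Pdlim4, Kynu and Itgax) while Gzmb gained one. Interferon genes called higher in CD4+ TILs went from 5 to 11.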

Other observations

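Some of the clearest differences were of genes on none of the lists. The genes in this paragraph and the next were chosen after their values were seen, as the 10 with the smallest p in each direction outside the lists and the naming rule. Higher in CD8+ TILs was Cdh1, E-cadherin, the ligand of CD103, at 12.4, 11.2, 20.6 and 21.6 CPM in CD4+ and 127, 146, 162 and 151 CPM in CD8+ TILs (8.91-fold, adjusted p = 2.2e-05). Itgae, which encodes the CD103 chain, was higher in the CD4+ libraries. Thy1, a surface glycoprotein of mouse T cells, was at 254, 273, 247 and 309 CPM in CD4+ and 605, 721, 695 and 765 CPM in CD8+ TILs (2.57-fold, adjusted p = 5.62e-05). Dkc1, the pseudouridine synthase dyskerin, was 3.53-fold (adjusted p = 5.38e-05) and Heatr1, of ribosome production, 2.3-fold higher (adjusted p = 0.000115). Setbp1 (8.18-fold), Atp8b4 (8.33-fold), Rras2 (5.07-fold), Abi3 (4.3-fold), Padi2 (3.45-fold) and Sept11 (2.75-fold) completed the 10, and in none did the groups overlap.

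Among the genes higher in CD4+ TILs, Tiam1, an exchange factor for Rac, was at 156, 219.6, 227 and 204 CPM in CD4+ and 17.5, 14, 21.2 and 11 CPM in CD8+ TILs (12.7-fold, adjusted p = 4.99e-06). Arhgap31 was 5.85-fold (adjusted p = 4.37e-06) and Arhgef11 7.75-fold higher (adjusted p = 1.08e-05). The extracellular proteins Itih5 (15.5-fold, adjusted p = 2.59e-06) and Lamc1, a laminin chain (6.99-fold, adjusted p = 2.59e-06), differed as clearly. Axl, a receptor kinase, was at 72.1, 67.7, 71.5 and 70.1 CPM in CD4+ and 10.3, 12.2, 7.61 and 11.8 CPM in CD8+ TILs (6.73-fold, adjusted p = 1.79e-05). The metabolic genes Ass1, of arginine synthesis (4.12-fold, adjusted p = 1.18e-05), and Dgat1, of triglyceride synthesis (6.96-fold, adjusted p = 1.59e-05), were also higher in all 4 CD4+ libraries, as were B4galnt4 (8.5-fold) and Tbc1d4 (7.38-fold).

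Xist was at 885, 70, 898 and 583 CPM in CD4+ replicates 1 to 4 and at 1285, 60.5, 1115 and 824 CPM in CD8+ replicates 1 to 4, so replicate 2 was the lowest in both cell types. Mice of both sexes were used per the study's reporting summary, and the sample titles do not give the sex.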
